A study of Mus musculus with 24 samples.

Results

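Solute carriers are membrane proteins that move amino acids, ions, metals, vitamins, fatty acids and metabolites across the plasma membrane or the membranes of organelles. Members were selected by gene symbol, as every array probe set, a group of short probes for 1 transcript, whose symbol begins with Slc and a number. The glucose carrier families Slc2a and Slc5a and the genes Slc10a2, Slc11a2 and Slc51a were left out. This gave 170 of the 12488 probe sets on the array, and 169 of these listed a single gene, for 139 of the 8251 genes so listed. Of the 169, 126 probe sets (111 genes, 74.6%) had a signal over 51.5 on at least 3 arrays and were tested, against 72.7% of all probe sets. Signals are the deposited array intensities, and values under 21.2 were raised to that floor before log2 was taken. RNA came from whole tissue of 4 places along the gut, which were the corpus of the stomach (without the antrum), jejunum, descending colon and rectum. Germ-free mice, raised without microbes, and conventional mice, which carry a gut microbiota, gave 3 arrays each for every region, 24 in all. The labels give no strain, age or sex, and no tie between arrays and single mice, so a p-value here reflects only how far these arrays scatter.

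In the small intestine, apical carriers take nutrients from the lumen into enterocytes and basolateral carriers pass them on towards the blood. Several amino acid carriers work as pairs of a heavy chain (Slc3a1 or Slc3a2) and a light chain of the Slc7 family, with Slc3a1 and Slc7a9 on the apical side and Slc3a2 with Slc7a7 or Slc7a8 on the basolateral side. The colonic epithelium takes up salts and short-chain fatty acids, and its goblet cells use Golgi nucleotide sugar carriers when they glycosylate mucin.

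Region markers went against the label of 3 libraries. The summed signal of 4 enterocyte genes (Apoa1, Apoa4, Fabp2 and Lct) was 268 in the library labelled conventional jejunum 3, against 22013 to 39638 in the other jejunum libraries, and its hindgut sum (Car1, Hoxb13 and Hoxd13) was 4941, against 43 to 183. In the library labelled conventional rectum 1 the enterocyte sum was 17548, against 259 to 1595 in the other rectum libraries, and the hindgut sum 52, against 2508 to 5661. Each of these libraries thus had the markers of the region on the other's label, and whether they were exchanged was not tested. The library labelled germ-free corpus 3 had a parietal cell sum (Atp4a, Atp4b and Cblif) of 305, against 16564 to 35661 in the other corpus libraries, and a hindgut sum of 3240. Other libraries carried part of another region's markers. Germ-free rectum 1 had a parietal sum of 3770 and a squamous sum (Krt13, Krtdap, Lgals7 and Sprr3) of 3010. Germ-free corpus 2 had Car1 at 1432.5, against 9.2 to 15.7 in the corpus libraries other than germ-free corpus 3. Germ-free jejunum 3 had Atp4a at 874.3, against 110.6 to 185.9 in the other jejunum libraries. In germ-free descending colon 1 the hindgut genes disagreed. Hoxb13 was 111.6, against 1082.2 to 1727.8 in the other descending colon libraries, while Car1 was 6818.1, against 1860.7 to 3974.3. These libraries were kept when the 3 above were left out. The values of germ-free corpus 3 were also close to those of germ-free descending colon 3: over 3500 bright probe sets the log2 differences between these arrays had an SD of 0.128, while the next closest pair, conventional rectum 2 and 3, had 0.262. Whether both arrays hold the same RNA was not tested. Results cover all 24 arrays. The main counts of calls and some differences of single members are also given without the 3 libraries. Where only the value over all arrays is given, these libraries can move it. In whole tissue, fewer cells of a type and less RNA per cell cannot be told apart.

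Carriers differed widely along the gut. A moderated F test over the 4 regions called 67 of the 126 tested members (53.2%, 64 genes) at an adjusted p under 0.05, where 35.2% of all 9033 tested probe sets were called. With the 3 libraries left out it called 78 of 122 (63.9%), against 44.8% of all, and 66 members were called both ways (the call of Slc9a3r2 was lost). Among the called members were some highest in the corpus, such as Slc10a6, some highest in the jejunum, such as Slc34a2, and some highest in the descending colon and rectum, such as Slc20a1.

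**Figure D1:**
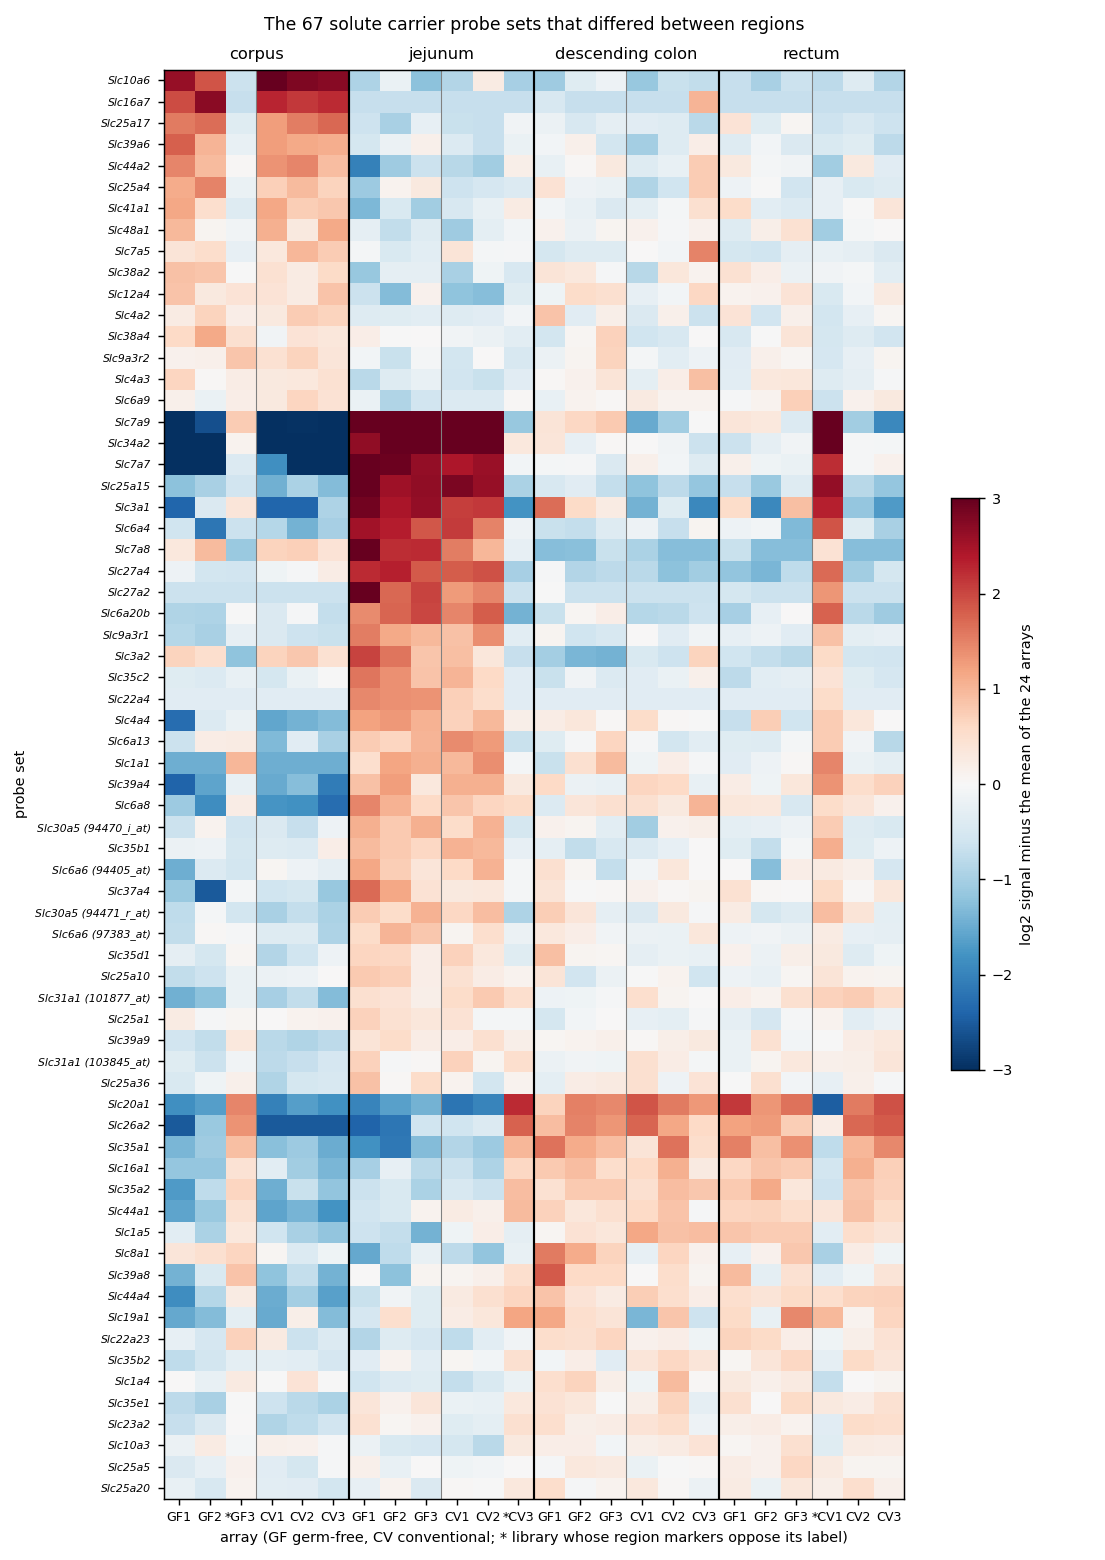
Rows are the 67 solute carrier probe sets that differed between regions and columns are the 24 arrays, with germ-free left of conventional in each region; colour is the log2 signal (floor 21.2) minus the member's mean over the arrays. Rows are ordered by which of corpus, jejunum and descending colon had the highest mean, taken without the 3 marked libraries. These libraries differ from the other arrays of their label.

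Between jejunum and corpus, limma with Benjamini-Hochberg adjustment called 62 of the 126 members (49.2%, 58 genes), 41 higher and 21 lower in the jejunum. Over all tested probe sets 32.9% were called, 13.7% higher and 19.2% lower. The median log2 difference (jejunum minus corpus) was 0.14 over the members and -0.10 over all probe sets. Leaving out the 3 libraries gave 70 calls of 122, 47 higher and 23 lower, against 39.4% of all (17.1% higher and 22.3% lower), and 61 of the 62 calls were shared, all but that of the zinc carrier Slc30a9.

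Amino acid carriers had 9 of 19 tested probe sets called, 6 higher and 3 lower in the jejunum, against 32.9% of all. Slc7a9, the light chain of the apical carrier of cystine and dibasic amino acids, had signals of 112.2 to 2578.1 (median 2332) in the jejunum, against 8.1 to 418 (median 30.05) in the corpus. The lowest jejunum value was that of conventional jejunum 3 and the highest corpus value that of germ-free corpus 3. Without the 3 libraries the jejunum lay at 1938 to 2578.1 and the corpus at 8.1 to 39.4. The fold was 32.2 over all arrays (log2 5.01 ± 0.83 SE, adjusted p = 0.00012) and 81.9 without the 3 libraries. Leaving out conventional jejunum 3 alone gave 53.8-fold and leaving out germ-free corpus 3 alone 48.8-fold.

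Slc3a1, the heavy chain of that carrier, had signals of 31.9 to 828.4 (median 545.3) in the jejunum and 9.7 to 142.7 (median 39) in the corpus, with overlap through conventional jejunum 3. It was 8.52-fold higher in the jejunum (log2 3.09 ± 0.74 SE, adjusted p = 0.00293), 13.4-fold without conventional jejunum 3 and 16.4-fold without the 3 libraries. Slc7a7, the light chain of the basolateral exporter of dibasic amino acids, reached 189.6 to 2264.3 (median 1234) in the jejunum and 8.2 to 151.6 (median 11.3) in the corpus. All jejunum arrays lay above all corpus arrays, by 29.3-fold (log2 4.87 ± 0.51 SE, adjusted p = 4.2e-06) and by 54.9-fold without the 3 libraries. Slc7a8, a light chain for neutral amino acids, was 2.56-fold higher in the jejunum (log2 1.36 ± 0.37 SE, adjusted p = 0.00732). Slc3a2, the heavy chain that serves both, had a log2 difference of 0.52 ± 0.33 (SE, adjusted p = 0.247). Slc1a1, a carrier of glutamate and aspartate, was 3.72-fold higher (log2 1.90 ± 0.40 SE, adjusted p = 0.00106).

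The 250 bases before the RefSeq start (build GRCm38.p6) are shown for 3 members high in the jejunum and, last, for Slc10a6, the leading corpus member. HNF4, HNF1 and CDX2 are transcription factors of the intestinal epithelium. Capitals mark an HNF4 motif (CAAAGTCCA) or a CDX2 motif (TTTATNG) on either strand, and an HNF1 motif was searched as well. Slc3a1 lies on the plus strand at chr17:85028097-85028346, Slc34a2 on the plus strand at chr5:53049103-53049352, Slc27a4 on the plus strand at chr2:29802384-29802633 and Slc10a6 on the minus strand at chr5:103629404-103629653.
Slc3a1: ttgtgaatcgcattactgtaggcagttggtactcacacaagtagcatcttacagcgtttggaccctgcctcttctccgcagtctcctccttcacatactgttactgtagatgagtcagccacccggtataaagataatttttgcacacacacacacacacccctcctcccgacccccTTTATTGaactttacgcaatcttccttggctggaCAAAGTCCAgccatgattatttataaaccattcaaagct
Slc34a2: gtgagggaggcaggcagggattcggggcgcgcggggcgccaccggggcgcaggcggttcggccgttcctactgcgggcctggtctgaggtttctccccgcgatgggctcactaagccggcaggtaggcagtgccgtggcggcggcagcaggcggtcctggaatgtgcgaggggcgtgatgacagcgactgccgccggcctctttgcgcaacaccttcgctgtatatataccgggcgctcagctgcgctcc
Slc27a4: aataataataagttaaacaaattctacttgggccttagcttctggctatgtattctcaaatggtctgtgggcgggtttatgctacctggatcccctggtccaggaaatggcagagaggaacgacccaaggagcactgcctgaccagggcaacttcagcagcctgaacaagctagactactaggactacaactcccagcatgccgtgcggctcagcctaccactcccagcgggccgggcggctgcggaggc
Slc10a6: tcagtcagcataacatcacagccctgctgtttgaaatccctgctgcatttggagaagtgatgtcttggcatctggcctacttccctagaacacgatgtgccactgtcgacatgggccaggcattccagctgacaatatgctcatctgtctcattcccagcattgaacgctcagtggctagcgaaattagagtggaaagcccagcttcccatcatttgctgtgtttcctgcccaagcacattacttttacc
The Slc3a1 window held 1 HNF4 and 1 CDX2 match, and the other 3 windows held none of the motifs. RefSeq windows were found for 115 of the 139 member genes (165 windows). The HNF4 motif occurred in 2 of the 165 member windows (1.21%) and in 0.384% of all 32851 windows. The 2 were windows of Slc3a1 and Slc30a3, so the windows shown do not stand for the members. Of the 2 tested probe sets of Slc30a3, 0 were called between jejunum and corpus. The CDX2 motif occurred in 7 member windows (4.24%) and in 9.81% of all windows, and the HNF1 motif in 0 member windows and in 0.00913% of all. A match describes letters in the window only.

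Slc34a2, the apical sodium phosphate cotransporter of the small intestine, had signals of 331.8 to 3047.1 (median 2531) in the jejunum and 15.5 to 289.2 (median 18.85) in the corpus. Every jejunum array exceeded every corpus array, and 4 of the 6 corpus arrays were at or under the floor of 21.2. The fold was 52.7 (log2 5.72 ± 0.64 SE, adjusted p = 5.04e-06), 81.6 without germ-free corpus 3 and 116 without the 3 libraries. Folds are on the floored log2 scale, which understates differences of members with values under 21.2. Slc25a15, the mitochondrial ornithine carrier, had 202.6 to 3085.7 (median 2434) in the jejunum and 144.2 to 262.6 (median 183.4) in the corpus. Only conventional jejunum 3 lay within the corpus range. The fold was 9.11 (log2 3.19 ± 0.56 SE, adjusted p = 0.00021), 13.9 without that library and 14.8 without the 3. Mitochondrial carriers as a class had 6 of 22 tested probe sets called, 4 higher and 2 lower, against 32.9% of all. The class was counted with Slc25a17, a peroxisomal carrier, which was among the 2 lower. Slc25a10, the dicarboxylate carrier, was 1.65-fold higher in the jejunum, with 406.8 to 644.5 in the jejunum above 227.4 to 376.9 in the corpus.

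Both fatty acid carriers that were tested rose in the jejunum. Slc27a4, a fatty acid transport protein of enterocytes, had signals of 98.5 to 1002.8 (median 725.2) in the jejunum and 133.8 to 229.5 (median 179.2) in the corpus, with conventional jejunum 3 below the corpus. Its fold was 3.32 (log2 1.73 ± 0.43 SE, adjusted p = 0.00396) and 4.51 without the 3 libraries. Slc27a2, which activates very long chain fatty acids, was under the floor on all corpus arrays and had 1.8 to 264.4 (median 100.6) in the jejunum, at least 4.35-fold higher (adjusted p = 0.000131).

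Of the Slc6 and vesicle carriers of amines, creatine and taurine, 7 of 10 tested probe sets were called, 6 higher and 1 lower in the jejunum. The share called over all probe sets was 32.9%. Slc6a4, the serotonin transporter, had signals of 113.4 to 729.7 (median 502.1) in the jejunum and 28.3 to 83.6 (median 66.9) in the corpus, without overlap. It was 7.01-fold higher (log2 2.81 ± 0.43 SE, adjusted p = 5.82e-05), and its other probe set 1.81-fold higher (adjusted p = 0.0302). Slc6a8, the creatine transporter, was 4.9-fold higher, with 784.9 to 1467 in the jejunum and 109.4 to 615.2 in the corpus. Both probe sets of Slc6a6, the taurine transporter, were higher, by 1.83-fold and 2.15-fold. Slc6a9, a glycine transporter, was 1.59-fold lower in the jejunum.

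Among the metal carriers 10 of 19 tested probe sets were called, 6 higher and 4 lower in the jejunum, against 32.9% of all. Slc31a1, the copper importer, was higher by both of its probe sets, 2.76-fold (adjusted p = 5.56e-06) and 1.79-fold. The first had 1279.5 to 1946.7 in the jejunum and 415.6 to 994.3 in the corpus. Both probe sets of Slc30a5, a zinc carrier of the secretory pathway, chosen after their values were seen, were also higher, 2.1-fold and 2.24-fold. The probe sets of Slc39a4, the apical zinc importer, disagreed: one was 5.02-fold higher in the jejunum (log2 2.33 ± 0.30 SE, adjusted p = 1.17e-05), and the other had a log2 difference of -0.09 ± 0.13 (SE, adjusted p = 0.67). Slc39a6, another zinc importer, and Slc41a1, a magnesium carrier, were lower in the jejunum, by 2.49-fold and 2.32-fold.

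The members higher in the corpus were led by Slc10a6, a carrier of sulphated steroids. Its signals were 38.7 to 107.1 (median 48.3) in the jejunum and 57.8 to 741.4 (median 574.8) in the corpus. The lowest corpus value was that of germ-free corpus 3 and the other 5 arrays lay at 336.4 or more. It was 6.63-fold lower in the jejunum (log2 -2.73 ± 0.38 SE, adjusted p = 2.57e-05). Without the 3 libraries its log2 difference was -3.04 in germ-free and -3.17 in conventional mice. Slc16a7, a monocarboxylate carrier with high affinity for pyruvate, was under the floor on all 6 jejunum arrays and had 4.9 to 223.6 (median 155.4) in the corpus, so jejunum was lower by at least 5.52-fold (adjusted p = 9.37e-05). Slc25a17, a peroxisomal carrier of coenzyme A and related cofactors, had 348.1 to 638.2 in the jejunum and 531.1 to 2270.3 (median 2008) in the corpus, and was 3.44-fold lower. Slc44a2, a choline carrier-like protein, was 3.84-fold lower (adjusted p = 7.37e-05). Slc12a4, a potassium chloride cotransporter, was 2.43-fold lower without overlap between the regions.

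Slc4a2, the chloride bicarbonate exchanger of the basolateral membrane of parietal cells, had 396.3 to 488.5 in the jejunum and 594.2 to 883 in the corpus, 1.72-fold lower in the jejunum. Slc4a4, a sodium bicarbonate cotransporter, ran the other way and was 4.25-fold higher in the jejunum (adjusted p = 3.01e-05). Slc25a4, the ADP/ATP carrier typical of muscle, was 2.23-fold lower in the jejunum. Markers of other tissue types moved with these members. Without the 3 libraries the summed signal of 4 smooth muscle genes (Acta2, Actg2, Des and Myh11) ran from 3587 to 6992 in the jejunum and from 12755 to 17527 in the corpus. That of 4 genes of squamous epithelium (Krt13, Krtdap, Lgals7 and Sprr3), the lining of the mouse forestomach, ran from 134 to 302 in the jejunum and from 32774 to 40495 in the corpus. Their part in the carrier differences was not tested.

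**Figure D2:**
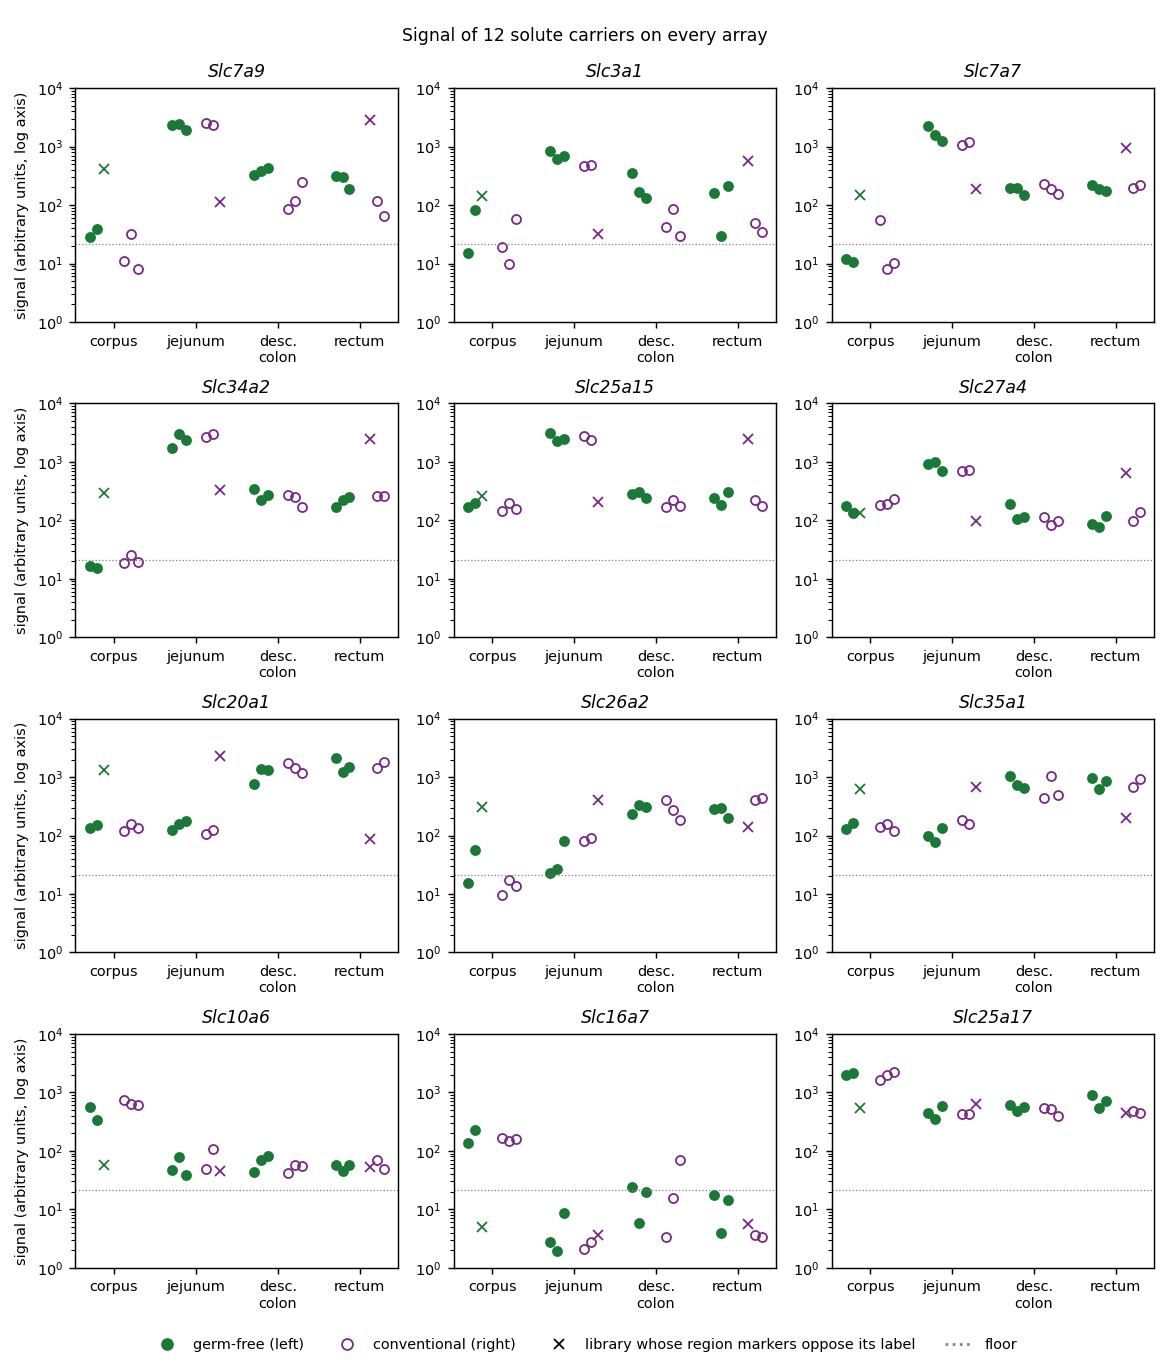
Each panel gives the signal of 1 carrier on a log axis for every array, by region, with germ-free left of conventional; crosses are the 3 libraries whose region markers oppose their labels and the dotted line is the floor of 21.2. Apart from the crosses, Slc7a9, Slc34a2 and Slc25a15 were highest in the jejunum arrays, Slc20a1 in the colon and rectum arrays and Slc10a6 in the corpus arrays.

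Between descending colon and jejunum, 30 of the 126 members were called (23.8%, 30 genes), 14 higher and 16 lower in the colon, where 14.4% of all probe sets were called, 9.1% higher and 5.34% lower. With array medians equalised the split was 10 higher and 20 lower. Leaving out the 3 libraries gave 46 calls of 122, 19 higher and 27 lower, against 25.4% of all (15.7% higher and 9.72% lower). Of the 30 calls, 29 were shared, all but that of Slc12a2. Without conventional jejunum 1 alone, 18 were called.

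Slc20a1, a sodium phosphate cotransporter found in most cells, had signals of 773.7 to 1775.8 (median 1348) in the descending colon and 106.5 to 2273.2 (median 139.6) in the jejunum. The highest jejunum value was that of conventional jejunum 3, and the other jejunum arrays lay at 180.2 or less. It was 5.87-fold higher in the colon (log2 2.55 ± 0.74 SE, adjusted p = 0.0254), 9.65-fold without that library. The call was lost in 6 of 12 runs that each left out 1 colon or jejunum array (adjusted p up to 0.0869). Slc35a1, the Golgi carrier of CMP-sialic acid, had 441.1 to 1045.5 in the colon and 76.4 to 671.4 (median 147.6) in the jejunum, 4.21-fold higher in the colon (log2 2.07 ± 0.42 SE, adjusted p = 0.00438). Slc35a2, the Golgi carrier of UDP-galactose, was 2.12-fold higher (adjusted p = 0.0373), a call lost in 12 of 24 alternative runs (adjusted p up to 0.108). Slc26a2, the sulphate transporter, had 183 to 409.7 (median 289.4) in the colon and 23 to 412.2 (median 79.7) in the jejunum, again with conventional jejunum 3 highest. It was 3.86-fold higher in the colon (log2 1.95 ± 0.52 SE, adjusted p = 0.018), a call lost in 3 of the 12 runs (adjusted p up to 0.0598).

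Slc16a1, the monocarboxylate carrier through which colonocytes take up butyrate, had 92.5 to 161.3 in the colon and 38.6 to 119 in the jejunum, 2.29-fold higher (adjusted p = 0.0203), a call lost in 3 of the 12 runs (adjusted p up to 0.0654). Slc1a5, a carrier of glutamine and other neutral amino acids, was 2.18-fold higher (adjusted p = 0.00369). Slc1a4, a related carrier of alanine, serine and cysteine, was 1.77-fold higher with no overlap. Slc8a1, the sodium calcium exchanger of excitable cells, was 2.69-fold higher (adjusted p = 0.00274). Slc12a2, the basolateral sodium potassium chloride cotransporter, was 1.5-fold higher (adjusted p = 0.0479), and without the 3 libraries its adjusted p = 0.0515. The smooth muscle sum ran from 7865 to 13584 in the descending colon and from 3587 to 6992 in the jejunum without conventional jejunum 3. Its part in these differences was not tested.

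Several members high in the jejunum against the corpus were also lower in the descending colon than in the jejunum, 2 comparisons that share the jejunum arrays. Slc7a8 had signals of 12 to 32.2 in the colon and 43 to 519.4 (median 193.3) in the jejunum, without overlap, and was 6.94-fold lower in the colon (log2 -2.80 ± 0.37 SE, adjusted p = 0.00124). Slc25a15 was 7.42-fold lower (adjusted p = 0.00372), and 11.3-fold without conventional jejunum 3. Slc34a2 was 7.12-fold lower (adjusted p = 0.00733), with 171.5 to 346.7 in the colon. Slc7a7 was 5.54-fold lower (adjusted p = 0.00461), with 150.7 to 226.4 in the colon. Slc7a9 was 6.21-fold lower (adjusted p = 0.039), and 10.4-fold without conventional jejunum 3. Its call was lost in 9 of the 12 runs that left out a single array (adjusted p up to 0.118). Slc3a1 had a log2 difference of -1.93 ± 0.74 (SE, adjusted p = 0.0868) over all arrays and of -2.58 ± 0.48 (SE, adjusted p = 0.000495) without the 3 libraries.

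Slc27a4 was 4.99-fold lower in the colon (log2 -2.32 ± 0.43 SE, adjusted p = 0.00291), with 84.8 to 194 in the colon, and Slc27a2 was 4.04-fold lower. Slc6a4 was 4.35-fold lower by the probe set that differed most from the corpus (adjusted p = 0.00455). Slc3a2 was 2.91-fold lower (adjusted p = 0.00571), with 369.6 to 1548.8 in the colon and 607.3 to 4009 in the jejunum. Slc22a4, a carrier of ergothioneine, was under the floor on all 6 colon arrays and all 6 corpus arrays and had 2.3 to 71.9 (median 55.95) in the jejunum, at least 2.26-fold lower in the colon (adjusted p = 0.00226). Slc35b1 and Slc35c2, nucleotide sugar carrier relatives of the endoplasmic reticulum and Golgi, were lower by 2.05-fold and 2.16-fold, while Slc35a1 and Slc35a2 were higher. Limma called none of the 19 metal probe sets between descending colon and jejunum over all arrays, against 14.4% of all probe sets. At an unadjusted p under 0.05 there were 4, against 28.6% of all. Without the 3 libraries 5 of 18 were called, all lower in the colon, against 25.4% of all (9.72% lower).

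**Figure D3:**
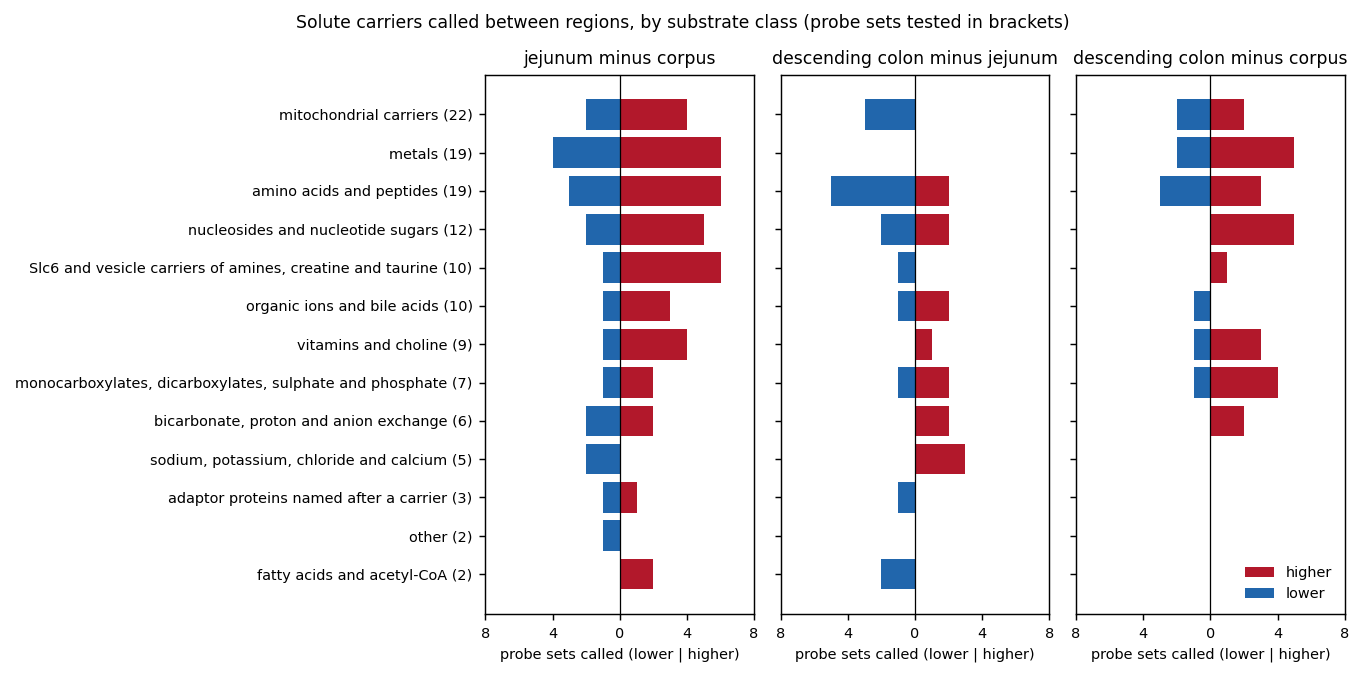
Bars give the number of solute carrier probe sets called higher or lower by substrate class in 3 comparisons between regions, over all 24 arrays. Of 19 metal probe sets, 10 were called between jejunum and corpus and 0 between descending colon and jejunum, against 32.9% and 14.4% of all.

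Between descending colon and corpus, 35 of the 126 members were called (27.8%, 33 genes), 25 higher and 10 lower in the colon, where 18.3% of all probe sets were called, 9.49% higher and 8.77% lower. Leaving out the 3 libraries gave 50 calls of 122, 37 higher and 13 lower, against 30% of all (15.5% higher and 14.5% lower), and all 35 calls were shared. Slc34a2 and Slc7a7 were higher in the colon than in the corpus, by 7.41-fold and 5.29-fold, and for Slc34a2 by 11.5-fold without germ-free corpus 3. Slc26a2 was 7.18-fold higher (adjusted p = 0.000606), Slc20a1 6.25-fold (adjusted p = 0.0156) and Slc35a1 3.78-fold (adjusted p = 0.00271).

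Carriers of vitamins and choline had 4 of 9 tested probe sets called, 3 higher and 1 lower in the colon, against 18.3% of all. Slc44a1, a choline carrier, had 510.6 to 954.8 in the descending colon and 152.5 to 725.1 (median 188.4) in the corpus, 3.14-fold higher in the colon (adjusted p = 0.000126). Slc44a4, known in human colon as a carrier of thiamine pyrophosphate, had 1694.6 to 2677.6 in the colon and 404.7 to 1729.8 (median 627.3) in the corpus, 3.02-fold higher (adjusted p = 7.65e-05). Slc23a2, an ascorbate transporter, was 1.79-fold higher, and Slc23a1, the other ascorbate transporter, was under the floor on all 24 arrays. Nucleoside and nucleotide sugar carriers had 5 of 12 tested probe sets called, all higher in the colon, against 18.3% of all (9.49% higher).

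Slc10a6, Slc16a7 and Slc25a17 were lower in the colon than in the corpus, by 6.74-fold, 4.41-fold and 3.12-fold. Slc39a6 was 2.44-fold lower (adjusted p = 0.002) and Slc7a8 2.71-fold lower (adjusted p = 0.00902). With the floor at the 40th percentile the call of Slc7a8 was lost (log2 -0.50, adjusted p = 0.137). Slc3a2 (2.03-fold, adjusted p = 0.0355), Slc44a2 (1.99-fold, adjusted p = 0.0277) and Slc25a4 (1.85-fold, adjusted p = 0.037) were also lower in the colon. Their calls were lost in 9, 8 and 9 of the 12 runs that left out a single array (adjusted p up to 0.116, 0.0956 and 0.119), and that of Slc20a1 in 1 (0.0532).

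Further members were named by class. Slc37a4, the glucose 6-phosphate carrier of the endoplasmic reticulum, exceeded the corpus by 3.11-fold in the jejunum (adjusted p = 0.000197) and by 2.14-fold in the colon (adjusted p = 0.0102). Slc39a9, a zinc carrier, was 1.89-fold and 1.64-fold higher in the same comparisons. One probe set of Slc35e1, a relative of the nucleotide sugar carriers, was 1.76-fold and 1.88-fold higher, and the other was called in the colon only (1.61-fold, adjusted p = 0.0457). Slc48a1, a haem carrier of endosomes, was 2.06-fold lower in the jejunum than in the corpus (adjusted p = 0.00184). Slc4a3, a chloride bicarbonate exchanger of excitable tissue, was 1.78-fold lower in the jejunum than in the corpus and 1.66-fold higher in the colon than in the jejunum.

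Slc10a3 and Slc22a23, whose substrates are not settled, were 1.47-fold and 1.74-fold higher in the colon than in the jejunum. Slc38a4, a carrier of neutral amino acids, was 1.53-fold lower in the colon than in the corpus (adjusted p = 0.0468). Slc25a20, the mitochondrial carrier of acylcarnitines, was 1.35-fold higher there (adjusted p = 0.0454). Slc22a21, a carnitine carrier, exceeded the corpus by 1.65-fold in the jejunum (adjusted p = 0.0184), while Slc22a5, the main carnitine importer, had a log2 difference (jejunum minus corpus) of 0.52 ± 0.25 (SE, adjusted p = 0.128). One of 2 probe sets of Slc19a1, the reduced folate carrier, rose 2.29-fold in the jejunum against the corpus. The other differed by 0.04 ± 0.16 (SE, adjusted p = 0.898). One of 2 probe sets of Slc29a1, a nucleoside carrier, was 1.42-fold lower (adjusted p = 0.0322).

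Between rectum and descending colon limma called 0 of the 126 members and 0% of the 9033 probe sets, over all arrays and also without the 3 libraries. At an unadjusted p under 0.05 there were 5 members (3.97%) and 202 probe sets in all (2.24%). Slc20a1 had a log2 difference (rectum minus descending colon) of -0.37 ± 0.74 SE, and of 0.33 ± 0.18 without the 3 libraries, where the rectum lay at 1211.6 to 2120.4 and the colon at 773.7 to 1775.8. Slc26a2 differed by -0.03 ± 0.52, Slc35a1 by -0.12 ± 0.42 and Slc44a4 by 0.06 ± 0.23 on the log2 scale. The member of lowest p, found by looking at the values, was Slc1a2, a glutamate transporter, at -1.18 ± 0.43 (unadjusted p = 0.0128 in limma). A p above the threshold does not show equal levels.

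Other members did not pass the F test over regions. Slc25a11, the mitochondrial oxoglutarate carrier, had signals of 319.5 to 545.9 over all 24 arrays (adjusted p = 0.593 in the F test). Slc39a7, a zinc carrier of the endoplasmic reticulum, had 433.7 to 940.7 (adjusted p = 0.358), and Slc12a7, a potassium chloride cotransporter, 352.7 to 804.4 (adjusted p = 0.314). Slc30a1, the zinc exporter of the plasma membrane, had 15.7 to 167.7 (adjusted p = 0.375), Slc4a1, the anion exchanger of red cells, 16.4 to 93.6 (adjusted p = 0.48), and Slc50a1, a sugar carrier, 227.4 to 535.5 (adjusted p = 0.063). Of 3 probe sets of Slc25a5, an ADP/ATP carrier, 1 passed the F test (adjusted p = 0.0255) and none passed between 2 regions. Slc9a3r1, Slc9a3r2 and Slc4a1ap carry a solute carrier symbol but are adaptor proteins. Slc9a3r1, a scaffold of the enterocyte brush border, had 1840.8 to 6655.7 (median 4805) in the jejunum and 1167.7 to 1944.7 (median 1480) in the corpus, 2.95-fold higher in the jejunum (adjusted p = 6.72e-05). For 28 genes no probe set was bright enough to be tested: Slc1a6, Slc4a5, Slc4a8, Slc6a12, Slc6a3, Slc7a1, Slc7a11, Slc7a3, Slc7a6, Slc9b2, Slc10a1, Slc12a1, Slc12a3, Slc17a1, Slc18a3, Slc22a30, Slc22a6, Slc23a1, Slc25a14, Slc25a48, Slc26a1, Slc27a1, Slc27a3, Slc27a5, Slc29a2, Slc32a1, Slc33a1 and Slc35a4. The highest signal among their probe sets was 95.8, for Slc27a1.

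The regional differences were also taken separately in germ-free and conventional mice, which share no arrays. Across the 126 members, Pearson's r between the difference in germ-free mice and that in conventional mice was 0.80 for jejunum minus corpus, 0.82 for descending colon minus jejunum and 0.84 for descending colon minus corpus. It was -0.10 for rectum minus descending colon. Leaving out the 3 libraries gave 0.92, 0.85, 0.86 and 0.26 in the same order. For all probe sets the values were 0.76, 0.73, 0.85 and 0.02 over all arrays. Without the 3 libraries they were 0.88, 0.76, 0.86 and 0.13. These correlations run across genes, which are not independent replicates, and are descriptions. All 62, 30 and 35 called members of the first 3 comparisons had the same sign in both states, a count that the call on the mean of both states favours. For Slc34a2 the log2 difference between jejunum and corpus was 5.52 in germ-free and 5.92 in conventional mice. For Slc7a9 it was 4.84 in germ-free and 5.18 in conventional mice. Other members, chosen after their values were seen, were further apart. For Slc7a8 it was 2.55 in germ-free and 0.17 in conventional mice (1.96 and 0.68 without the 3 libraries). For Slc3a2 it was 1.5 in germ-free and -0.46 in conventional mice (0.90 and -0.02 without the 3 libraries). For Slc26a2 it was -0.97 in germ-free and 2.76 in conventional mice (0.09 and 2.00 without the 3 libraries). In the test of whether the germ-free effect differed between regions the adjusted p was 0.898 for Slc7a8, 0.89 for Slc3a2 and 0.898 for Slc26a2.

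**Figure D4:**
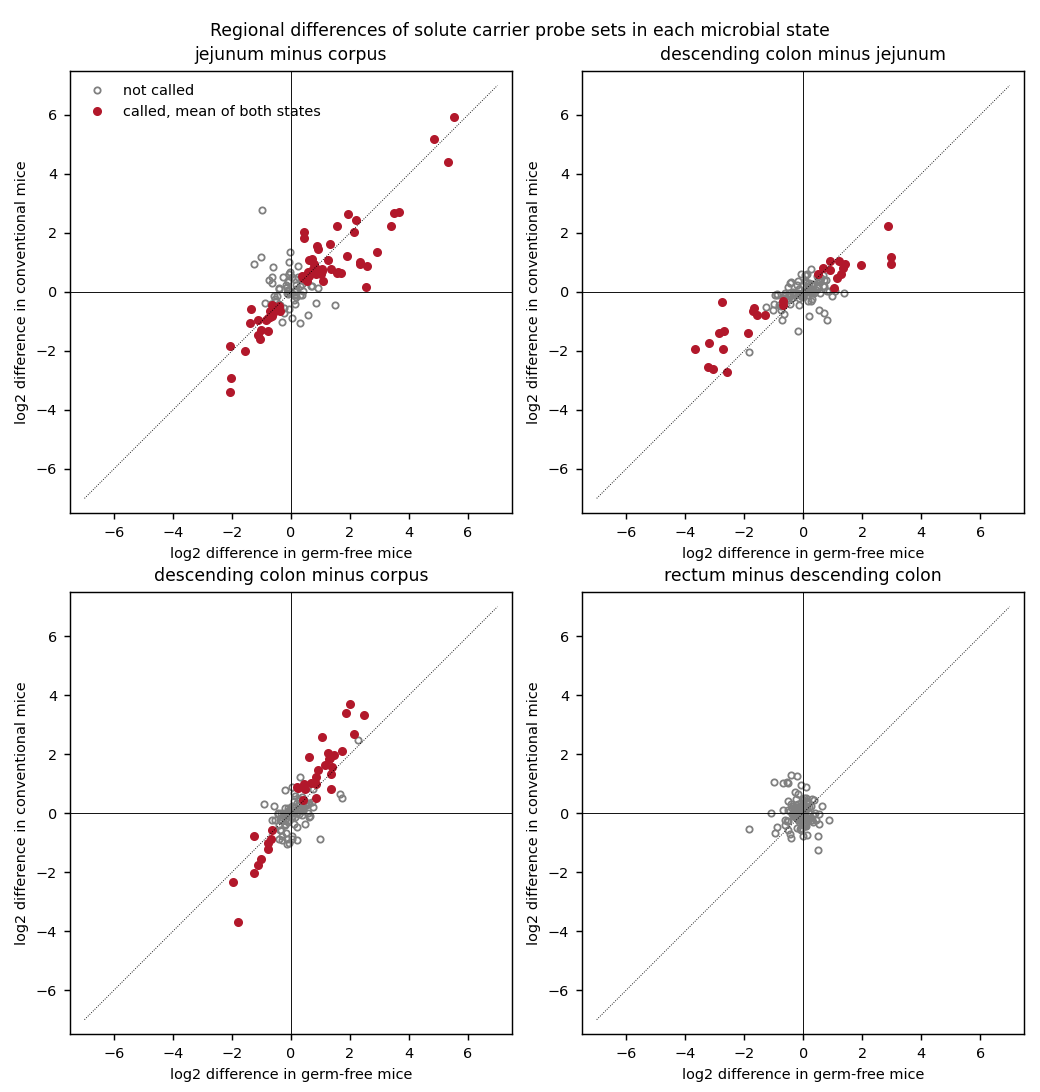
Each point is 1 of the 126 tested probe sets, with its log2 difference between 2 regions in germ-free mice on the x axis and in conventional mice on the y axis; red points were called on the mean of both states. Points follow the diagonal in the first 3 comparisons, with r of 0.80, 0.82 and 0.84, and do not in rectum minus descending colon, with r of -0.10.

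Microbial state moved few members past the threshold. Germ-free minus conventional gave 0 calls by limma among the 126 members in corpus (0% of all probe sets called), jejunum (0.465%), descending colon (0.0111%) and rectum (0.0111%). At an unadjusted p under 0.05 there were 10, 15, 15 and 1 members in these regions. These were 7.94%, 11.9%, 11.9% and 0.794% of the members, against 9.04%, 13.1%, 8.11% and 3.49% of all probe sets. Leaving out the 3 libraries also gave 0 calls in each region, against 0.0678%, 0.508%, 0.0903% and 0.0113% of all probe sets, with 4, 14, 18 and 2 members at an unadjusted p under 0.05. The shares were then 3.28%, 11.5%, 14.8% and 1.64% of the members and 6.88%, 12.3%, 11.3% and 2.51% of all. A test of whether the germ-free effect differed between regions called 0 members and 0.0221% of all probe sets (0.079% without the 3 libraries). It had 8 members at an unadjusted p under 0.05 (6.35%, against 5.4% of all) and a lowest adjusted p of 0.844, for Slc1a5.

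Averaged over the 4 regions, 1 of the 126 members was called (0.794%), lower in germ-free mice, against 1.68% of all probe sets, 0.819% higher and 0.864% lower. It was Slc25a25, a calcium-regulated mitochondrial carrier of ATP-Mg and phosphate (log2 -0.56 ± 0.14 SE, adjusted p = 0.0468). In the corpus it had 147.6, 195.5 and 149 in germ-free arrays and 244.6, 346.2 and 255.4 in conventional arrays. In the descending colon it had 269.5, 147.3 and 128.9 in germ-free arrays and 290.5, 300.6 and 302.5 in conventional arrays. The states did not overlap in corpus, descending colon or rectum, and they did in the jejunum. Slc25a25 was chosen by its call on these same arrays, which favours such separation. How many of all probe sets separate in this way was not counted. The call was lost without the 3 libraries (log2 -0.51 ± 0.16 SE, adjusted p = 0.124) and in 21 of the 24 runs that left out a single array (adjusted p up to 0.144).

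With the 3 libraries left out, 1 of 122 members was called on the mean of the regions, against 1.49% of all probe sets (0.723% higher and 0.768% lower). This was Slc7a9, higher in germ-free mice (log2 0.85 ± 0.18 SE, adjusted p = 0.0224), while over all arrays its log2 difference was 1.10 ± 0.59 (SE, adjusted p = 0.335). In the descending colon Slc7a9 had 321.8, 380.9 and 425.8 in germ-free arrays and 85.7, 118.6 and 243.5 in conventional arrays. In the rectum it had 314.3, 304.3 and 185.3 in germ-free arrays, and 118.6 and 64 in conventional arrays 2 and 3. Conventional rectum 1, the library with jejunal markers, had 2840.1. In the jejunum it had 2338.7, 2431.5 and 1938 in germ-free arrays and 2578.1, 2325.3 and 112.2 in conventional arrays, the last being conventional jejunum 3. The summed signal of the 4 enterocyte genes ran from 1008 to 4406 in germ-free and from 160 to 893 in conventional descending colon. In the rectum these sums overlapped, at 259 to 1595 in germ-free and 302 to 17548 in conventional arrays. Their part in the Slc7a9 values was not tested.

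In the jejunum the lowest p belonged to Slc22a4, with 71.9, 68.6 and 68.2 in germ-free arrays and 43.7, 38.6 and 2.3 in conventional arrays (log2 1.08 ± 0.29 SE, adjusted p = 0.0955). Slc7a8 had 519.4, 238.7 and 241.6 in germ-free arrays and 147.9, 103.1 and 43 in conventional arrays (log2 1.84 ± 0.52 SE, adjusted p = 0.117). Slc27a2 had 264.4, 109.8 and 136 in germ-free arrays and 80.2, 91.3 and 1.8 in conventional arrays (log2 1.56 ± 0.50 SE, adjusted p = 0.166). In these 3 carriers all germ-free arrays lay above all conventional arrays, with conventional jejunum 3 lowest. They were the 3 members of lowest p, a choice that favours such separation. The share of all probe sets without overlap was not taken. Without the 3 libraries the log2 differences were 0.76 ± 0.27 for Slc22a4 (adjusted p = 0.224), 1.33 ± 0.36 for Slc7a8 (adjusted p = 0.12) and 0.89 ± 0.34 for Slc27a2 (adjusted p = 0.27). Slc1a5 ran the other way, with 37.1, 34.5 and 9.5 in germ-free arrays and 52.2, 65.4 and 47.3 in conventional arrays (log2 -0.86 ± 0.31 SE, adjusted p = 0.213). The summed signal of 4 leukocyte genes (Cd52, Cd53, Coro1a and Ptprc) ran from 256 to 378 in germ-free jejunum and from 673 to 1302 in conventional jejunum. Its part in the carrier values was not tested.

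In the descending colon Slc3a2 and its light chain Slc7a5, which together import large neutral amino acids, were lower in every germ-free array than in every conventional array, without a call. Slc7a5 was the member of lowest p there, a choice that favours such separation. Slc3a2 was not among the members of lowest p listed for this region and is given here as the heavy chain of Slc7a5. How many of all probe sets separate in this way in the descending colon was not counted. In the jejunum the Slc3a2 difference ran the other way, higher in germ-free mice, also without a call. Slc7a5 had 184.4, 203 and 202.3 in germ-free arrays and 266.9, 252.7 and 750.3 in conventional arrays (log2 -0.91 ± 0.31 SE, adjusted p = 0.602). Slc3a2 had 482.5, 379.3 and 369.6 in germ-free arrays and 716.9, 634.9 and 1548.8 in conventional arrays (log2 -1.13 ± 0.47 SE, adjusted p = 0.602). The highest value of each was that of conventional descending colon 3. This array also had the leukocyte gene Cd52 at 6846.2, against 109.4 to 431.3 in the other colon arrays. The other leukocyte genes did not follow Cd52. Coro1a was 233.9, against 99.5 to 207.8, Cd53 was 81.6, against 42.1 to 155.9, and 1 probe set of Ptprc was 29.6, against 36 to 70.4. The part of these markers was not tested. In the corpus Slc10a6 had 551.8, 336.4 and 57.8 in germ-free arrays and 741.4, 625.5 and 597.8 in conventional arrays, where the lowest was that of germ-free corpus 3. Its log2 difference was -1.56 ± 0.54 (SE, adjusted p = 0.415) over all arrays and -0.60 ± 0.37 (SE, adjusted p = 0.839) without the 3 libraries. Without germ-free corpus 1 alone it was -2.23 and passed the threshold (adjusted p = 0.0393). In the rectum the lowest adjusted p of any member was 0.982.

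The 6 members of lowest p in each region give the scale of the differences, as log2 germ-free minus conventional. In the corpus they were Slc10a6 (-1.56), Slc25a28 (0.72), Slc6a8 (1.05), Slc25a25 (-0.78), Slc23a3 (-1.01) and Slc26a2 (1.76), with adjusted p from 0.415 to 0.521. In the jejunum they were Slc22a4 (1.08), Slc7a8 (1.84), Slc27a2 (1.56), Slc6a6 (0.66), Slc3a2 (1.30) and Slc1a5 (-0.86), with adjusted p from 0.0955 to 0.213. Slc25a28 is a mitochondrial iron carrier, and Slc6a6 appears by 1 of its probe sets. In the descending colon they were Slc7a5 (-0.91), Slc25a25 (-0.79), Slc30a3 (1.2), Slc8a1 (0.93), Slc22a12 (0.81) and Slc39a7 (-0.49), with adjusted p = 0.602 for each. Slc30a3 loads zinc into synaptic vesicles and Slc22a12 is a urate carrier. In the rectum they were Slc6a2 (1.17), Slc1a5 (0.59), Slc27a4 (-1.14), Slc1a4 (0.45), Slc35b1 (-0.57) and Slc25a17 (0.61), with adjusted p = 0.982 for each. Slc6a2 is the noradrenaline transporter. On the mean of the regions they were Slc25a25 (-0.56), Slc7a5 (-0.48), Slc25a51 (0.40), Slc22a21 (0.46), Slc38a4 (0.42) and Slc25a11 (0.22), with adjusted p from 0.0468 to 0.15. For the difference between regions the 4 members of lowest p were Slc1a5, Slc3a2, Slc22a4 and Slc7a8, with an adjusted p of 0.844 to 0.898. Some of the values listed for single regions rest in part on the 3 libraries. For Slc27a4, rectum minus descending colon in conventional mice was 1.07 over all arrays and 0.24 without the 3 libraries. For Slc26a2, descending colon minus corpus in germ-free mice was 2 over all arrays and 3.05 without them.

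**Figure D5:**
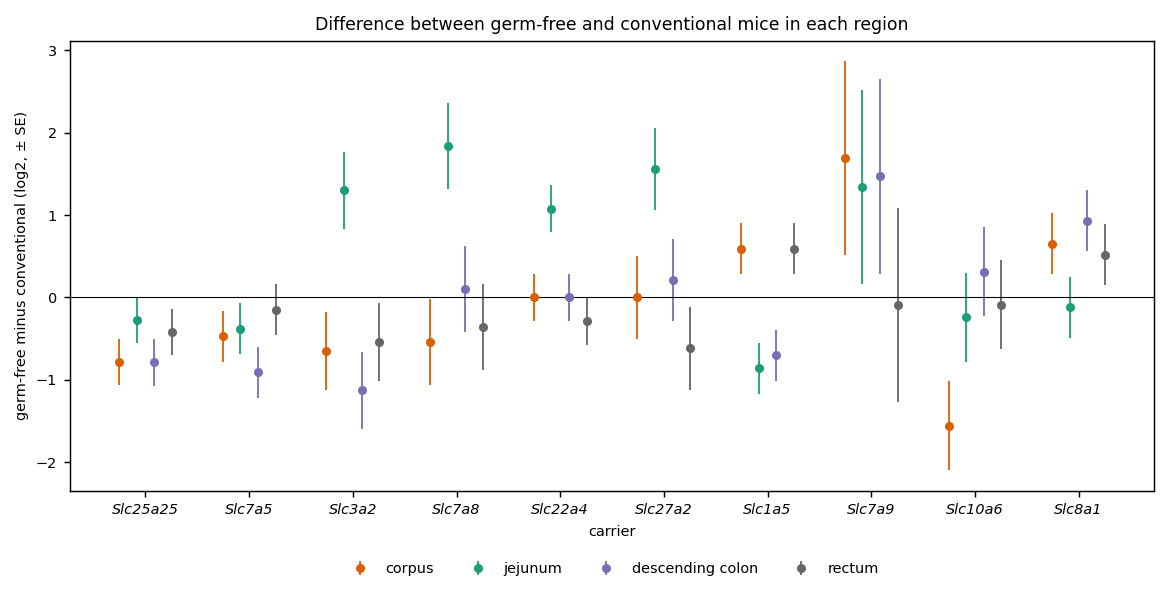
Points are germ-free minus conventional differences on the log2 scale in each region, over all arrays, for 10 carriers, and bars are the SE of the fit. Slc25a25 lay below 0 in all 4 regions, Slc22a4 was under the floor on all corpus and descending colon arrays, and no difference in a single region passed the threshold.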

How the data were processed

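Intensities, 1 per probe set and array, were used as deposited. They were linear values found to share a common trimmed mean (200.1 to 200.14 with 2% trimmed at each end). The algorithm behind them and detection calls are not given in the sources used here. After 66 control probe sets were removed, values under the 25th percentile (21.2) were raised to it and log2 was taken. A probe set was tested if it exceeded the 40th percentile (51.5) on at least 3 arrays (9033 probe sets). One limma model (limma 3.58.1 in R 4.3.3, with an intensity trend) held 8 group means over 24 arrays, with Benjamini-Hochberg adjustment over all 9033 probe sets and a threshold of 0.05. Regional comparisons averaged both microbial states. Data for 9033 probe sets were simulated for jejunum minus corpus with independent normal noise. In these, 55 of 100 changes of log2 1 and 97 of 100 of log2 2 were recovered, with 9 false calls. The simulated fit had no floor and no filter, and probe sets not tested here entered its adjustment as constant values. Its recovery and false calls therefore need not hold for the main test.

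The members, class lists and markers were chosen with earlier results of these data known, and nucleotide sugar relatives of the Slc35 family were placed in their class after the files were seen. Named members were those with the 8 largest called differences in each direction between regions, the 6 of lowest p for microbial state, the 4 of lowest p for the difference between regions, up to 4 of lowest p per class and a list of epithelial carriers. Alternatives changed the floor, filter, scaling, variance trend, arrays fitted, block and libraries.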

Additional observations from a re-analysis of the deposited data

How the results depend on the processing

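None of the 78 differences of members named by the rule changed sign under an alternative run, and of the 49 called 38 were kept in every one. Outside these, Slc20a1 (rectum minus descending colon) was -0.37 over all arrays and 0.33 without the 3 libraries, called in neither. For descending colon minus jejunum 46 members were called without the 3 libraries, against 30 over all arrays. For germ-free minus conventional jejunum the calls were 3 with the floor at the 40th percentile (Slc22a4, Slc7a8 and Slc27a2), 1 with no filter and 1 with no intensity trend (Slc22a4 in both), against 0. For the germ-free mean over regions they were 0 with the floor at the 10th percentile, with no filter, with array medians equalised, with no trend and with a random replicate block, and 2 (Slc7a9 and Slc25a25) with 5 libraries left out, against 1. This last alternative, which also dropped germ-free descending colon 1 and germ-free rectum 1 for their region marker values, was added after seeing the data. The cause was not tested. Leaving out 1 array at a time gave 53 to 67 calls for jejunum minus corpus, 18 to 35 for descending colon minus jejunum, 25 to 43 for descending colon minus corpus, 56 to 73 in the F test over regions and 0 for rectum minus descending colon. It gave 0 to 1 for germ-free corpus, 0 to 1 for germ-free jejunum, 0 for germ-free descending colon, 0 for germ-free rectum, 0 to 1 for the germ-free mean and 0 for the difference between regions. The corpus call was Slc10a6 without germ-free corpus 1, and the jejunum call was Slc12a2 without germ-free jejunum 3 (log2 -0.92, limma adjusted p = 0.0332). Equalising array medians gave a median log2 difference of all probe sets of 0.08 in place of -0.10 for jejunum minus corpus, -0.06 in place of 0.10 for descending colon minus jejunum, 0.07 in place of -0.04 for rectum minus descending colon and -0.10 in place of 0.07 for germ-free minus conventional descending colon. Deviations of same-numbered arrays of 1 state correlated at -0.50 to 0.67 (median 0.09, 16 of 36 over 0.1), and of other numbers at -0.79 to 0.68 (median -0.04, 7 of 72). All same-numbered pairs passed 0.1 in 1 of 16 pairs of groups, germ-free rectum and germ-free descending colon (0.16 to 0.45, against -0.40 to 0.08 for other numbers), so the numbers were not taken to pair the arrays in general. For rectum minus descending colon either replicate block gave 0 calls. The random replicate block (correlation 0.12) gave 65, 34 and 40 calls for the first 3 regional comparisons, and number as a fixed replicate block 63, 30 and 33.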
